A study of Mus musculus with 8 samples.

Results

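The interferon-stimulated genes described here are 42 named genes, chosen by symbol with earlier results of these data known, among 54446 genes listed in the count table and 15613 genes tested. All 42 were found in the count table and in the table of TPM values (transcript abundance scaled by length and library), and all 42 passed the filter on low counts. They comprise 4 transcription factors, 6 sensors or enzymes of double-stranded or altered nucleic acids, 3 Ifit proteins, 4 Oas proteins and nucleases, 5 dynamin-like or guanylate-binding GTPases, 7 genes of ISG15 and ubiquitin conjugation, 3 poly(ADP-ribose) polymerases and 10 other effectors. They were measured by RNA-seq in Hepa1-6, a mouse hepatoma line whose strain the labels give as C57BL/6, in 8 libraries of 4 groups. Cells received 50 µM TMAO (trimethylamine N-oxide, a metabolite that the liver makes from gut bacterial trimethylamine) together with 50 ng/ml TNF-α (tumour necrosis factor alpha, an inflammatory cytokine), TNF-α alone, TMAO alone, or neither (control), each with 2 libraries, and exposure lasted 24 h. For the combined group 1 label field names TMAO for both doses, and the titles and the protocol name TMAO and TNF-α. All libraries come from this 1 cancer cell line, and the numbers 14 and 16 that tell the libraries of a group apart have no stated meaning. The labels name no separate cultures, so p-values reflect how far these libraries spread, and that spread may be technical.

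Interferons are secreted proteins that cells release on sensing viral nucleic acids. Type I and III interferons act through receptors and the kinases Jak1 and Tyk2 to activate ISGF3, a complex with Stat2 and Irf9 that binds interferon-stimulated response elements (ISRE). Interferon gamma acts through gamma-activated sites (GAS), and the gene for Irf1 is a known target of this route as well as of NF-κB, the factor that TNF-α activates. Hepatocytes respond to interferons with the same antiviral genes, and in macrophages TNF-α is known to induce part of them through Irf1 and interferon beta.

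Libraries held 24736746 to 30488605 counts. Values per library are given as CPM (counts scaled to a common library size, with TMM factors), in the order library 14 and then library 16 of each group. Of the 8 libraries the TNF-α library 16 had the fewest counts, with 20815 genes detected against 22253 to 22917 in the others. Over the 42 genes the log2 difference of library 16 over library 14 had an SD of 0.48 in the TNF-α group. It was 0.068 with both agents, 0.17 with TMAO and 0.14 in controls. Over all genes tested the SDs were larger, 0.81 with TNF-α, 0.37 with both agents, 0.35 with TMAO and 0.41 in controls. Between the TNF-α libraries 10 of the 42 genes differed more than 1.5-fold, a count not made over all genes. Of 6 hepatocyte genes examined 4 were tested by edgeR, and averaged over TMAO 3 passed as lower with TNF-α and 0 as higher. Alb, Afp and Hnf4a were detected in all 8 libraries and were lower with TNF-α (log2 fold changes -1.60, -1.16 and -0.65). Trf, also among the 6, is not one of these 3, and the median log2 fold change of the 4 tested was -0.91. The levels of Apoa1 and Ttr were near 0. The part of the hepatocyte change in the results below was not tested. Of the macrophage markers Cd68, Cd14 and Csf1r were detected; Adgre1 and Clec4f, which define liver macrophages, were near 0, and the summed level of 6 such markers was 27.0 to 28.9 CPM with both agents, 29.9 to 40.1 CPM with TNF-α, 30.0 to 32.0 CPM with TMAO and 31.2 to 34.8 CPM in controls. Of the 6 macrophage markers, which also include Lyz2, 3 were tested by edgeR. Averaged over TMAO 1 passed as lower with TNF-α and 0 as higher, and the median log2 fold change of the 3 was 0.063. Summed leukocyte markers stayed at or under 1.06 CPM, endothelial markers at or under 1.67 CPM and stellate markers at or under 2.45 CPM. In bulk RNA a smaller number of responding cells and less RNA per cell cannot be told apart. All 8 NF-κB target genes examined, among them Nfkbia and Tnfaip3, rose with TNF-α.

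The interferon-stimulated genes were on the whole modestly higher in cells that had received TNF-α, and the guanylate-binding proteins Gbp2 and Gbp3 changed most among those that passed the test. Averaged over cells with and without TMAO, 14 of the 42 genes (33.3%) were higher with TNF-α and 0 were lower, at an adjusted p under 0.05 (quasi-likelihood test of edgeR, Benjamini-Hochberg over all genes). Among all genes tested 5.35% were higher and 3.86% were lower in the same comparison. The 14 genes were Irf1, Irf7, Dhx58, Zbp1, Oasl1, Oasl2, Mx2, Gbp2, Gbp3, Xaf1, Herc6, Uba7, Parp9 and Parp12, with log2 fold changes of 0.34 to 1.25. When TPM values were tested in place of counts, Irf7, Zbp1, Oasl1, Oasl2, Xaf1, Herc6, Parp9 and Parp12 did not pass. The median log2 fold change of the 42 genes was 0.32, against 0.0032 for all genes tested. Of the 42 genes 35 lay above 0, against 50.6% of all genes tested. In 21 of the 42 genes all 4 libraries with TNF-α were higher than all 4 without it, and in 0 were all 4 lower; over all genes tested these shares were 9.81% and 10.2%. These 21 included the 14 genes that passed the test, and the other 7 were Ddx58, Ifit1, Oas1a, Mx1, Bst2, Ifitm3 and Isg15. The count of genes that passed depended on single libraries. Without the TNF-α library 16 it was 28 (27 higher and Usp18 lower, among 25.05% of all genes called) and without the TNF-α library 14 it was 31 (28 higher and Adar, Eif2ak2 and Stat2 lower, among 45.6%), while without any 1 of the other 6 libraries it was 7, all higher, among 3.96% to 4.37% of all genes: Irf1, Zbp1, Mx2, Gbp2, Gbp3, Herc6 and Uba7.

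**Figure D1:**
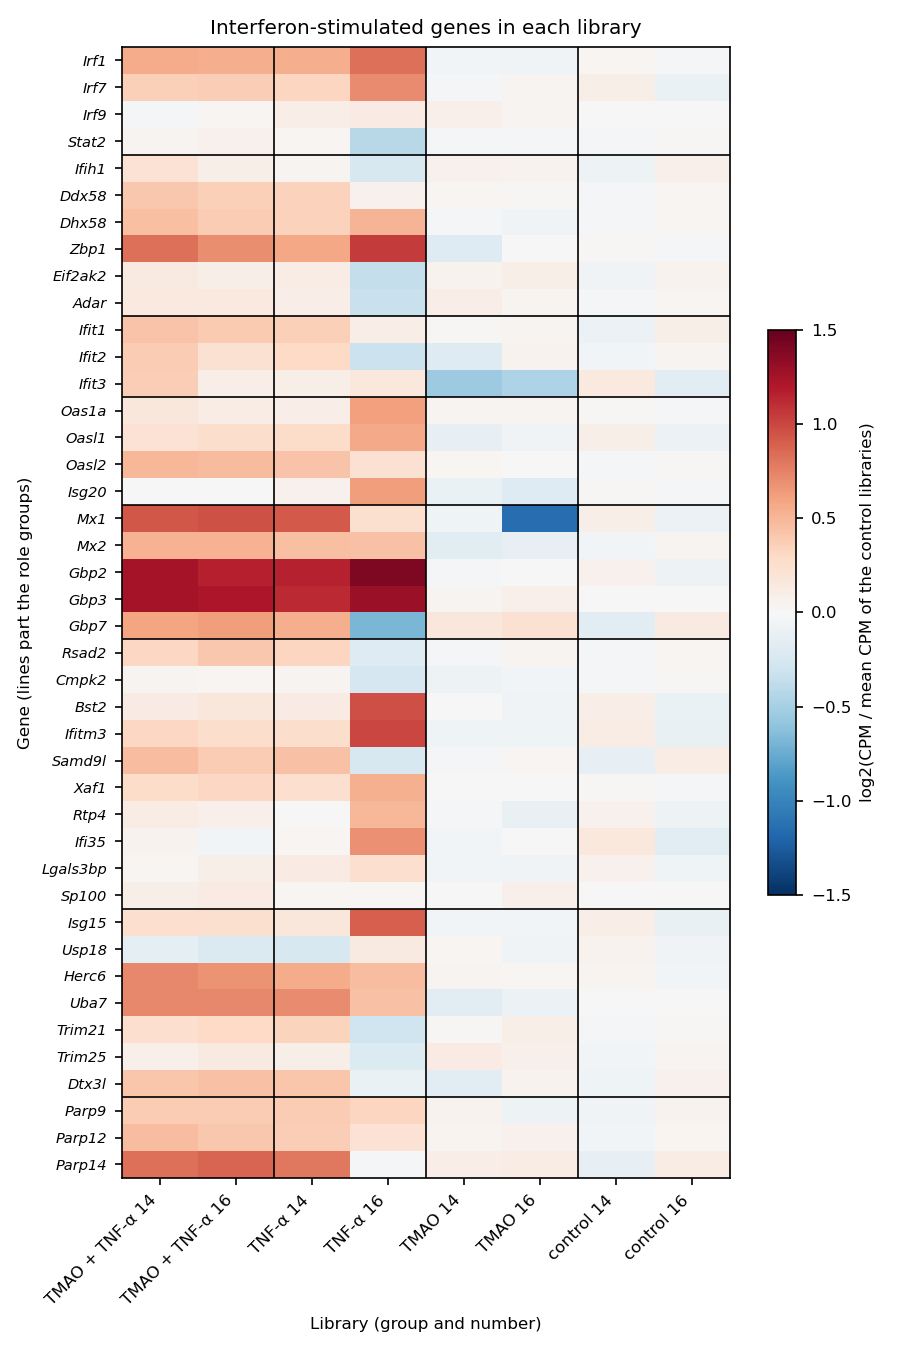
Log2 ratio of the CPM of each of the 42 genes (rows) in each of the 8 libraries (columns) to the gene's mean CPM in the 2 control libraries, as a colour scale, with rows ordered by role and the libraries with TNF-α on the left. Most rows are above their control mean in the 4 libraries with TNF-α, Gbp2 and Gbp3 among the most, and the TNF-α library 16 differs from its partner in many rows.

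The 4 transcription factors divided evenly between genes that rose and genes that did not pass. Irf1, a factor that binds many of these promoters and is itself induced by interferon gamma and NF-κB, had 117 and 116 CPM with TMAO and TNF-α, 116 and 141 with TNF-α alone, 77.2 and 76.7 with TMAO alone and 80.9 and 77.6 in control cells. All 4 libraries with TNF-α were above all 4 without it, and Irf1 rose with TNF-α by 0.64 on the log2 scale (SE 0.082, adjusted p = 0.00360, edgeR). Irf7, which drives the amplification of type I interferon, had 155 and 156 CPM with TMAO and TNF-α, 151 and 198 with TNF-α alone, 119 and 125 with TMAO alone and 129 and 113 in control cells. Its groups with and without TNF-α did not overlap, with the TNF-α library 16 the highest, and its log2 fold change was 0.44 (SE 0.10, adjusted p = 0.0448). The difference in Irf7 was 0.31 among the libraries numbered 14 and 0.56 among those numbered 16. Irf9 and Stat2, the subunits that give ISGF3 its DNA binding and part of its activation, had log2 fold changes of 0.031 (95% interval -0.12 to 0.18) and -0.053 (95% interval -0.30 to 0.20), and neither passed the test.

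Of the 6 sensors and RNA enzymes, Zbp1 and Dhx58 rose. Zbp1, a sensor of Z-form nucleic acid that can trigger cell death, had 22.7 and 20.8 CPM in cells given both agents and 19.1 and 26.6 CPM in those given TNF-α, against 11.2 and 12.7 CPM with TMAO alone and 13.0 and 12.7 CPM in control cells. The lowest library with TNF-α was 19.1 CPM and the highest without it 13.0 CPM, and the log2 fold change was 0.85 (SE 0.12, adjusted p = 0.00661). Dhx58 encodes LGP2, a helicase that modulates the sensors RIG-I and MDA5, and had 17.7 and 16.9 CPM with TMAO and TNF-α, 16.5 and 18.5 with TNF-α alone, 12.7 and 12.5 with TMAO alone and 12.7 and 13.2 in control cells. It too separated the libraries with TNF-α from the others, with a log2 fold change of 0.45 (SE 0.079, adjusted p = 0.0145). Ddx58, which encodes RIG-I, was at 235 to 298 CPM with TNF-α and at 221 to 230.1 CPM without, and did not pass the test (adjusted p = 0.104). The other 3 sensors gave log2 fold changes near 0, namely -0.0019 for Ifih1 (MDA5), -0.027 for Eif2ak2 (the kinase PKR) and -0.011 for Adar (the editing enzyme ADAR1). In each of these 3 genes the TNF-α library 16 was the lowest of the 8. Within numbers 14 and 16 the log2 differences were 0.13 and -0.14 for Ifih1, 0.13 and -0.20 for Eif2ak2 and 0.091 and -0.13 for Adar.

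The 3 Ifit proteins, which bind viral RNA and block its translation, did not pass the test. Ifit1 had 47.9 and 46.9 CPM with TMAO and TNF-α, 45.7 and 38.3 with TNF-α alone, 36.2 and 36.5 with TMAO alone and 33.4 and 37.9 in control cells. Every library with TNF-α was above every library without, but the TNF-α library 16 exceeded the control library 16 only by 38.3 against 37.9 CPM, and the log2 fold change was 0.31 (SE 0.087, adjusted p = 0.0789). Ifit3 was low, with 5.35 and 4.43 CPM in cells given both agents and 4.40 and 4.63 CPM in those given TNF-α, against 2.84 and 3.02 CPM with TMAO alone and 4.60 and 3.69 CPM in control cells. Its groups overlapped, since the control library 14 was above the combined library 16 and the TNF-α library 14, and the log2 fold change of 0.43 (SE 0.13) had an adjusted p of 0.102. Ifit2 had a log2 fold change of 0.20 (adjusted p = 0.566), with 0.46 within number 14 and -0.094 within number 16. Without the TNF-α library 16 its log2 fold change was 0.33 and passed (adjusted p = 0.00584).

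Oasl1 and Oasl2, which resemble the 2'-5' oligoadenylate synthetases that make the activator of RNase L, rose slightly. Oasl1 had 157 and 163 CPM with TMAO and TNF-α, 163 and 200.4 with TNF-α alone, 124 and 130.1 with TMAO alone and 144 and 127 in control cells. The TNF-α library 16 was the highest, and the log2 fold change was 0.38 (SE 0.092, adjusted p = 0.0496). Oasl2 had 300.4 and 295 CPM in cells given both agents and 284 and 248 CPM in those given TNF-α, against 216 and 213 CPM with TMAO alone and 209.8 and 215 CPM in control cells, and here the TNF-α library 16 was the lowest of the 4 with TNF-α. Its log2 fold change was 0.40 (SE 0.077, adjusted p = 0.0194), and the 4 libraries with TNF-α did not overlap the others in either gene. Oas1a, a synthetase, and Isg20, an exonuclease, had log2 fold changes of 0.24 and 0.26 with adjusted p of 0.320 and 0.330; both were highest in the TNF-α library 16, at 179 and 44.5 CPM.

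Of the 5 GTPases Gbp2, Gbp3 and Mx2 rose. Guanylate-binding proteins attach to the membranes of intracellular bacteria and parasites, and Gbp2 (ENSMUSG00000028270.12) and Gbp3 (ENSMUSG00000028268.14) lie in the same gene cluster on chromosome 3. Gbp3 had 138 and 135 CPM in cells given both agents and 127 and 144 CPM in those given TNF-α, against 60.0 and 61.8 CPM with TMAO alone and 58.0 and 58.9 CPM in control cells. The lowest library with TNF-α was more than 2-fold above the highest without it, and the log2 fold change was 1.19, or 2.28-fold (SE 0.073 on the log2 scale, adjusted p = 0.000200). Gbp2 had 29.5 and 27.9 CPM in cells given both agents and 27.6 and 33.0 CPM in those given TNF-α, against 12.3 and 12.5 CPM with TMAO alone and 13.0 and 11.9 CPM in control cells. It also separated fully, with a log2 fold change of 1.25, or 2.38-fold (SE 0.090, adjusted p = 0.000363). Within the libraries numbered 14 and 16 the log2 differences were 1.16 and 1.21 for Gbp3 and 1.17 and 1.31 for Gbp2. Both genes passed the test in all 4 comparisons of cells with TNF-α and cells without it.

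Gbp7, a relative in the same cluster, had 38.4 and 39.0 CPM with TMAO and TNF-α, 37.0 and 15.8 with TNF-α alone, 28.6 and 29.8 with TMAO alone and 22.8 and 28.0 in control cells. The TNF-α library 16 was the lowest of all 8 and the other 3 libraries with TNF-α were the highest, so that the log2 difference was 0.56 within number 14 and -0.22 within number 16, and the gene did not pass (log2 fold change 0.23, adjusted p = 0.712). Mx2, a dynamin-like GTPase that restricts viruses, had 26.3 and 26.2 CPM in cells given both agents and 24.9 and 24.9 CPM in those given TNF-α, against 16.3 and 16.8 CPM with TMAO alone and 17.7 and 18.9 CPM in control cells. All 4 libraries with TNF-α were at 24.9 CPM or more and all 4 without at 18.9 CPM or less, with a log2 fold change of 0.55 (SE 0.070, adjusted p = 0.00359). Mx1, a relative of Mx2 that is inactive in many inbred mouse strains, was the gene with the lowest level of the 42 per length (mean 0.523 TPM); it had 1.40 and 1.42 CPM with TMAO and TNF-α, 1.39 and 0.868 with TNF-α alone, 0.701 and 0.331 with TMAO alone and 0.777 and 0.689 in control cells. Its log2 fold change of 1.04 rested on these low values (SE 0.29, adjusted p = 0.0798). Gbp2, Gbp3 and Gbp7, and likewise Mx1 and Mx2, Oasl1 and Oasl2 and the Ifit genes, are related in sequence, and the sources used here do not give how reads shared between relatives were counted, so the split between them is uncertain.

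**Figure D2:**
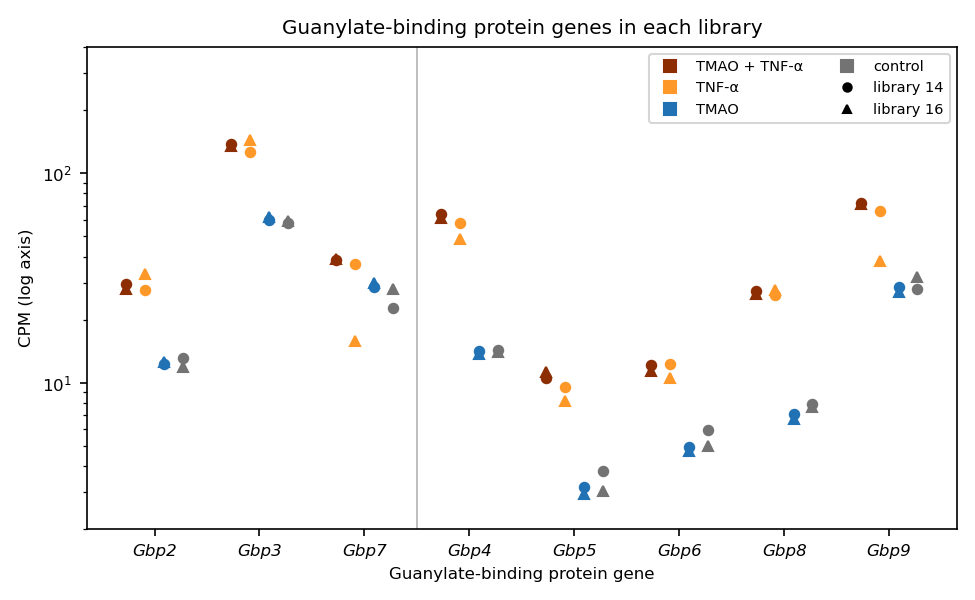
CPM on a logarithmic axis of 8 guanylate-binding protein genes in each library, coloured by group, with circles for library 14 and triangles for library 16; Gbp2, Gbp3 and Gbp7 are among the 42 genes and the 5 genes right of the line belong to the wider list. Gbp2 and Gbp3 show no overlap between libraries with and without TNF-α, while the TNF-α library 16 of Gbp7 lies below all others.

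Promoters were read for the 4 genes of the 42 with the smallest adjusted p that had an entry, to show which letters lie before genes that rose, and for Irf1 and Isg15, which were added after their motifs had been seen. The sequences are from RefSeq (build GRCm38.p6), cover 250 bases before to 50 bases after a gene's start, and run 5′ to 3′ on the gene's strand. Gbp3 has 2 such starts and Irf1 another one that is not shown. Capitals mark an ISRE core (GAAANNGAA or its reverse complement TTCNNTTTC), a GAS element (TTCNNNGAA) or a κB site. The κB site was searched on the printed strand only, the other motifs on both strands. The lower-case run ggaacttccc of Gbp2 is a κB match on the other strand and was not marked. The windows are chr3:142559794-142560093 and chr3:142560106-142560405 for the first and second start of Gbp3, chr3:142620413-142620712 for Gbp2, chr11:53769764-53770063 for Irf1, chr9:107975317-107975616 for Uba7, chr6:57580742-57581041 for Herc6, all on the plus strand, and chr4:156200769-156201068 on the minus strand for Isg15.
Gbp3, first start: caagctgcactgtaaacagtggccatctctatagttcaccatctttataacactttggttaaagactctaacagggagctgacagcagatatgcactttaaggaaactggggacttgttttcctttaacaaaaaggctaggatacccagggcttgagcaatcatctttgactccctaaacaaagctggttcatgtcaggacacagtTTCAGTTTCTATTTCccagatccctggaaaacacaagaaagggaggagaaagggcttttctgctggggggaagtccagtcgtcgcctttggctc
Gbp3, second start: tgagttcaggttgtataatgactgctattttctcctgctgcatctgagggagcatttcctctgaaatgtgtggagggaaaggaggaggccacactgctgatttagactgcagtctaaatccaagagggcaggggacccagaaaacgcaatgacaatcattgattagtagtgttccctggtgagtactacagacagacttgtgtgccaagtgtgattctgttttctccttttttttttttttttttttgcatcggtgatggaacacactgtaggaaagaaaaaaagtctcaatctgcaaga
Gbp2: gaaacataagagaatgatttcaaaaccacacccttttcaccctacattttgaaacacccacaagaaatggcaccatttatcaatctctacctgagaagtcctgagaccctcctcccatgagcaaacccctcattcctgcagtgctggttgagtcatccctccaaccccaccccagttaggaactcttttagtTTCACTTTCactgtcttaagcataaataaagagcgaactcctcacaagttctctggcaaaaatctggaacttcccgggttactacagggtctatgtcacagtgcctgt
Irf1: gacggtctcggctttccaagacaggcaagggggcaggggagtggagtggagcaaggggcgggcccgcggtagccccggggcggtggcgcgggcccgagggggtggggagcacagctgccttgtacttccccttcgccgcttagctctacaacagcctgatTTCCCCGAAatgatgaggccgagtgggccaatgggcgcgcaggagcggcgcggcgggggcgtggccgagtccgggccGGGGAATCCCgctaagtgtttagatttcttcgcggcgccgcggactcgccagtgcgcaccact
Uba7: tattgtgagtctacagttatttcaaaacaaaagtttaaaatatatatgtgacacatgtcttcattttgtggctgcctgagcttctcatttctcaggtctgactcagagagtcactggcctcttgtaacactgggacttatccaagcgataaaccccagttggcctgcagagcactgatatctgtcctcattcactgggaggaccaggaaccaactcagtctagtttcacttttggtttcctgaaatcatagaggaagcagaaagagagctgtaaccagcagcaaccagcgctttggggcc
Herc6: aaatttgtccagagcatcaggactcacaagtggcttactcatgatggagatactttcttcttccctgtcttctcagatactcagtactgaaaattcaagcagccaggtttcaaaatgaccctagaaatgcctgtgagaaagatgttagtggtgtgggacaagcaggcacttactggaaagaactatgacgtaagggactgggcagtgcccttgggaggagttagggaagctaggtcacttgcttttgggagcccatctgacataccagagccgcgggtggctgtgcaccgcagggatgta
Isg15: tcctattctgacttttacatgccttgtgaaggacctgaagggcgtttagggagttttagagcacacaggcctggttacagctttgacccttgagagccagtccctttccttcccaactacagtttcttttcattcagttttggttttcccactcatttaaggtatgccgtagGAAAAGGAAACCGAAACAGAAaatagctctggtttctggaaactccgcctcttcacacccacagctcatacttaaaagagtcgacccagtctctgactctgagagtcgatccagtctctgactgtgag
In Gbp2 the ISRE core lies at -58 to -50 from the start, and the first start of Gbp3 holds 2 cores, at -44 to -36 and -38 to -30, that overlap. Irf1 holds a GAS element at -90 to -82 and a κB site at -13 to -4. Isg15 holds 3 overlapping ISRE cores between -78 and -58. Uba7, Herc6 and the second start of Gbp3 hold none of the 3 motifs, as searched, in these windows.

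Of the 42 genes 34 had a promoter entry, and Dhx58, Zbp1, Mx1, Mx2, Rtp4, Usp18, Parp9 and Parp14 did not. An ISRE core was found in 18 of the 34 genes (52.9%), against 9.76% of all 27025 genes with a promoter entry and 8.56% of all 32851 windows. A GAS element was found in 10 of the 34 (29.4%), against 9.55% of all genes. A κB site was searched on the gene's strand only and was found there in 5 of the 34 (14.7%), against 6.72%. The shares of all windows were 8.30% for GAS and 5.89% for κB. Among the 10 matched genes that rose with TNF-α, 2 held an ISRE core (Gbp2 and Gbp3) and 1 a GAS element (Irf1). A κB site on the gene's strand was held by 2 of these 10 (Irf1 and Oasl1). Gbp2 held a κB match on the other strand, which was not counted. Among the 24 matched genes that did not pass the test, 16 held an ISRE core and 9 a GAS element. A κB site on the gene's strand was held by 3 of these 24 (Ifit2, Isg20 and Bst2). GAS elements shared bases with an ISRE core in Ifitm3 and Bst2 and with the κB site in Bst2 and Ifit2, and the 2 κB matches of Oasl1 overlapped. ISRE cores overlapped one another in 7 genes. A match is a run of letters, not a measured site, and no difference between these shares was tested.

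Among the 7 genes of ISG15 and ubiquitin conjugation, Uba7 and Herc6 rose and the other 5, the modifier Isg15 among them, did not pass. Uba7, the enzyme that activates ISG15, had 28.9 and 28.8 CPM in cells given both agents and 28.4 and 23.7 CPM in those given TNF-α, against 15.6 and 16.4 CPM with TMAO alone and 17.5 and 17.3 CPM in control cells. It separated the libraries fully, with a log2 fold change of 0.72 (SE 0.085, adjusted p = 0.00269). Herc6, the ligase that joins ISG15 to proteins in mice, had 40.5 and 39.2 CPM with TMAO and TNF-α, 36.3 and 34.1 with TNF-α alone, 25.3 and 25.2 with TMAO alone and 25.4 and 24.0 in control cells. Every library with TNF-α exceeded every library without, with a log2 fold change of 0.59 (SE 0.070, adjusted p = 0.00270); 13.7% of the exon bases of Herc6 are shared with an overlapping transcript on the same strand. Isg15 had 72.8 and 71.9 CPM with TMAO and TNF-α, 68.8 and 113 with TNF-α alone, 59.3 and 59.3 with TMAO alone and 65.5 and 56.6 in control cells. Its libraries did not overlap either, but the TNF-α library 16 was far above the other 3, and the log2 fold change of 0.43 (SE 0.15) had an adjusted p of 0.164. The differences in Isg15 were 0.18 within number 14 and 0.64 within number 16. Usp18, the protease that removes ISG15 and dampens the interferon receptor, had a log2 fold change of -0.10 (95% interval -0.34 to 0.13), with 126 and 119 CPM with TMAO and TNF-α, 118 and 153 with TNF-α alone, 142 and 135 with TMAO alone and 145 and 134 in control cells. Apart from the TNF-α library 16, its libraries with TNF-α were below those without. Dtx3l, Trim21 and Trim25, which are ubiquitin ligases, had log2 fold changes of 0.33, 0.14 and -0.022 and did not pass. Dtx3l gave 0.53 within number 14 and 0.11 within number 16, and Trim21 gave 0.29 and -0.053.

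Parp9 and Parp12 rose among the 3 interferon-responsive poly(ADP-ribose) polymerases. Parp9, the partner of Dtx3l, had 74.3 and 74.6 CPM with TMAO and TNF-α, 74.4 and 71.7 with TNF-α alone, 59.2 and 54.5 with TMAO alone and 55.1 and 59.4 in control cells, a log2 fold change of 0.37 (SE 0.069, adjusted p = 0.0177). Parp12, which inhibits the replication of several RNA viruses, had 179 and 171 CPM in cells given both agents and 167 and 150.4 CPM in those given TNF-α, against 133 and 135 CPM with TMAO alone and 126 and 132 CPM in control cells, a log2 fold change of 0.34 (SE 0.072, adjusted p = 0.0276). In both genes the libraries with TNF-α lay above all others. Parp14 had 229 and 236 CPM with TMAO and TNF-α, 223 and 127 with TNF-α alone, 138 and 139 with TMAO alone and 118 and 139.7 in control cells. Of the 4 libraries with TNF-α, 3 were at 223 CPM or more, and the TNF-α library 16 fell among the libraries without it, and the log2 fold change of 0.59 did not pass (SE 0.17, adjusted p = 0.0898). The log2 differences in Parp14 were 0.82 within number 14 and 0.31 within number 16. Parp9 and Dtx3l share 458 exon bases on opposite strands, and whether counting used strand is not given, so reads of that stretch cannot be told apart.

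Of the 10 other effectors only Xaf1, which promotes cell death by opposing the inhibitor XIAP, passed the test. Xaf1 had 86.2 and 88.3 CPM with TMAO and TNF-α, 84.6 and 102 with TNF-α alone, 70.5 and 71.5 with TMAO alone and 71.8 and 70.2 in control cells, with no overlap between libraries with and without TNF-α and a log2 fold change of 0.35 (SE 0.081, adjusted p = 0.0420). Ifitm3, a membrane protein that blocks viral entry, had 985 and 955 CPM in cells given both agents and 957 and 1594 CPM in those given TNF-α, against 760.1 and 758 CPM with TMAO alone and 856 and 735 CPM in control cells. The libraries did not overlap, but the TNF-α library 16 exceeded its partner by 0.74 on the log2 scale, and the log2 fold change was 0.52 (SE 0.17, adjusted p = 0.121). The log2 differences in Ifitm3 were 0.27 within number 14 and 0.72 within number 16. Bst2 (tetherin, which holds budding virus at the membrane) was likewise high in the TNF-α library 16, at 479.8 CPM against 266 CPM in its partner, and gave 0.073 within number 14 and 0.65 within number 16. Rsad2 (viperin), Cmpk2, Samd9l, Rtp4, Ifi35, Lgals3bp and Sp100 had log2 fold changes of -0.0017 to 0.28 with adjusted p of 0.370 to 0.996. Samd9l gave 0.53 within number 14 and -0.0045 within number 16, and Ifi35 gave -0.020 and 0.41.

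**Figure D3:**
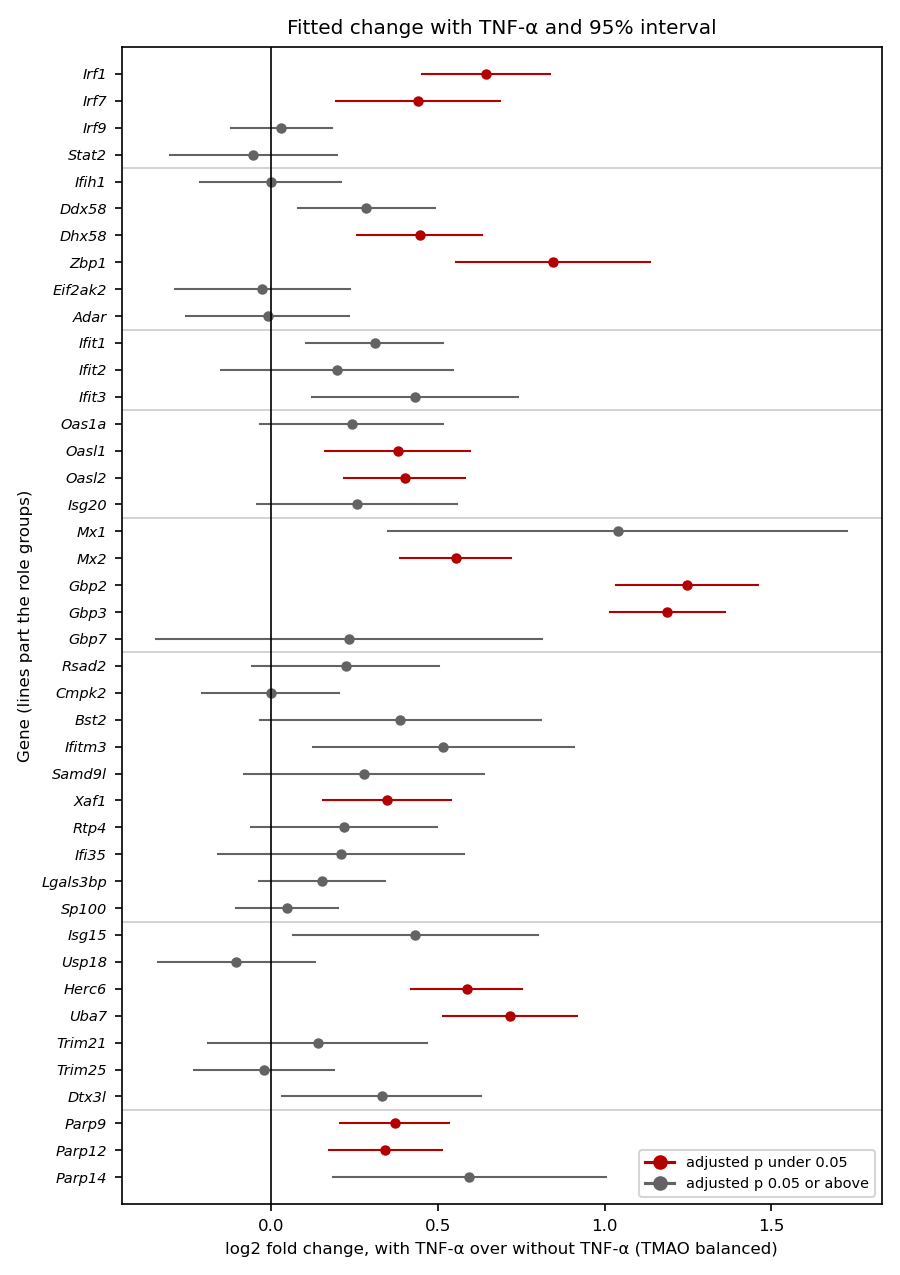
Log2 fold change of each of the 42 genes with TNF-α, averaged over cells with and without TMAO, with its 95% interval from edgeR and the genes grouped by role. Red marks the 14 genes with an adjusted p under 0.05 and grey the others; Gbp2 and Gbp3 lie farthest right among these, while the interval of Mx1 is the widest.

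Levels in resting and treated cells differed widely per length. Ifitm3 had the highest mean of the 42 genes over the 8 libraries, 2697 TPM, with group means of 2929.6 TPM with both agents, 3338 TPM with TNF-α, 2233 TPM with TMAO and 2288 TPM in controls. It was followed by Bst2 at 726 TPM, Lgals3bp at 324 TPM, Usp18 at 215 TPM and Isg15 at 183 TPM. At the low end, above Mx1, stood Ifit3 at 8.23 TPM and Ifit2 at 10.4 TPM. Gbp3 and Gbp2, at 79.3 and 18.7 TPM, lay between these ends. None of the 5 genes with the highest mean TPM passed the test for TNF-α.

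The response to TNF-α was next set side by side in cells with and without TMAO, comparisons that share no library. With TMAO and TNF-α against TMAO 7 of the 42 genes were higher (Irf1, Zbp1, Mx2, Gbp2, Gbp3, Herc6 and Uba7) and 0 were lower, against 2.16% and 1.49% of all genes tested. With TNF-α against control 5 of these 7 genes were higher, all but Zbp1 and Mx2, and 0 of the 42 were lower, against 2.38% and 1.67% of all genes. The log2 fold changes in cells with TMAO and in cells without it were 1.17 and 1.21 for Gbp3, 1.21 and 1.28 for Gbp2, 0.59 and 0.69 for Irf1, 0.66 and 0.51 for Herc6 and 0.85 and 0.58 for Uba7. Zbp1 gave 0.86 (adjusted p = 0.0476) with TMAO and 0.83 (adjusted p = 0.0501) without it, and Mx2 gave 0.66 (adjusted p = 0.0148) with TMAO and 0.44 (adjusted p = 0.0608) without it. The difference between these responses, the interaction, did not pass for any of the 7 genes; its 95% interval was -0.38 to 0.30 for Gbp3, -0.13 to 0.67 for Uba7 and -0.11 to 0.55 for Mx2. The medians of the 42 genes were 0.35 with TMAO, against -0.015 for all genes, and 0.31 without TMAO, against 0.016 for all genes. In 34 of the 42 genes the log2 fold change was above 0 in both comparisons, as it was in 31.6% of all genes tested.

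**Figure D4:**
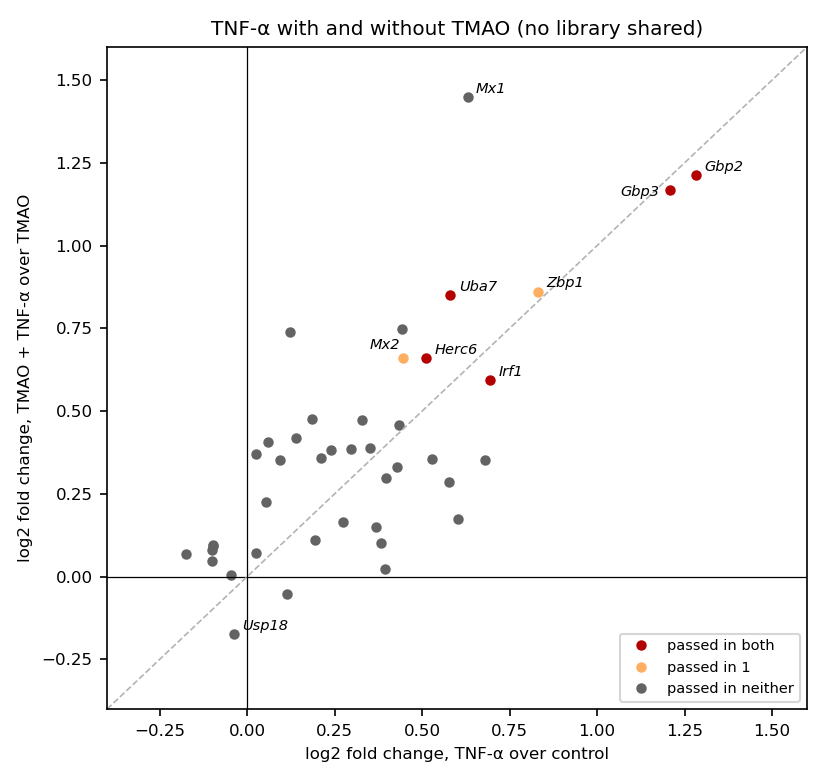
Log2 fold change of each of the 42 genes with TNF-α in cells given TMAO (TMAO and TNF-α over TMAO, vertical axis) against that in cells without TMAO (TNF-α over control, horizontal axis), with the line of equal change dashed. Red genes passed in both comparisons, orange ones in 1 and grey ones in neither. Of the 42 points 34 lie above 0 on both axes, and Gbp2 and Gbp3 lie near the upper right.

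With both agents against control 5 genes were higher (Mx2, Gbp2, Gbp3, Herc6 and Uba7) and 0 were lower, against 2.01% and 1.48% of all genes tested. This comparison shares its libraries with those above. Irf1 had a log2 fold change of 0.55 here and did not pass (adjusted p = 0.0542). These counts used 1 estimate of the spread from all 4 groups, to which the TNF-α pair contributed the widest differences. When both agents were compared with TMAO in their own 4 libraries, 32 of the 42 genes were higher and Usp18 was lower by edgeR's test, among 4775 of 14950 genes called in either direction (31.9%). The genes that did not pass there were Irf9, Stat2, Ifih1, Eif2ak2, Isg20, Cmpk2, Ifi35, Sp100 and Trim25. When TNF-α was compared with control in their own 4 libraries, 0 of the 42 genes and 1 of 14876 genes passed. On all 8 libraries the same comparison had 17 of the 42 genes at an unadjusted p under 0.05 by edgeR, as had 15.2% of all genes. With DESeq2 6 of the 42 passed, among 5.73% of all genes, and with limma-voom 5, among 4.08%. Without the TNF-α library 16 the counts of the 42 genes were 21 with TNF-α against control, among 12.9% of all genes called, 26 with both agents against TMAO, among 16.05%, and 25 with both against control, among 18.4%, all higher. Without the TNF-α library 14 they were 31 (22 higher and 9 lower, among 48.9%), 26 (among 15.98%) and 25 (among 18.2%). In TNF-α against control the call of Gbp7 changed direction with the library left out, at 0.54 without library 16 and -0.70 without library 14, as did that of Samd9l, at 0.44 and -0.25. Leaving out any 1 of the other 6 libraries gave lower counts. They were 1 to 2 for TNF-α against control (among 0.562% to 1.65% of all genes; 1 without the control library 16), 0 to 3 for both agents against TMAO (among 0.433% to 1.85%; 0 without either TMAO library) and 1 to 2 for both agents against control (among 0.549% to 1.75%; 1 without the combined library 14 or either control library).

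No difference with TMAO passed the test in the interferon-stimulated genes. In TMAO against control 0 of the 42 genes passed the edgeR test, as did 0.0% of all genes, and 0 passed with DESeq2 or limma-voom. At an unadjusted p under 0.05 by edgeR the count was 1 of 42 (2.38%), against 1.18% of all genes tested. This gene was Ifit3, with a log2 fold change of -0.50 (95% interval -0.94 to -0.057). Both TMAO libraries were below both control libraries in this gene. The other TMAO comparisons, namely both agents against TNF-α (0.0% of all genes), TMAO averaged over TNF-α (0.0%) and the interaction of the agents (0.0%), gave 0 of the 42 genes by edgeR, DESeq2 or limma-voom and 0 at an unadjusted p under 0.05. Over all genes tested the shares at an unadjusted p under 0.05 by edgeR were, in the same order, 3.52%, 2.90% and 1.18%. Median log2 fold changes of the 42 genes were -0.0077 for TMAO against control, 0.10 for both agents against TNF-α and 0.0086 for the average, and the median interaction was 0.070. The median half-width of the 95% intervals was 0.34 for TMAO against control and 0.48 for the interaction, with the spread shared over all 4 groups. Gbp3 had an interval of -0.13 to 0.21 and Irf1 one of -0.28 to 0.10 for the log2 effect of TMAO averaged over TNF-α. These counts too depended on the TNF-α pair: without the TNF-α library 14 both agents against TNF-α called 31 of the 42 genes (19 higher and 12 lower) among 49.4% of all genes, TMAO averaged over TNF-α called 27 among 44.8% and the interaction 24 among 35.5%, and without any 1 of the other 7 libraries each called 0.

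The difference between the TNF-α libraries followed exon length over these genes. The log2 difference of library 16 over library 14 in the TNF-α group had a Pearson correlation of -0.72 with log2 exon length over the 42 genes (Spearman -0.71), against -0.19 and -0.37 over 15607 genes tested; all points of a group come from the same pair of libraries. The 21 shorter genes, of 678 to 3927 exon bases, had a median difference of 0.30 and 16 of them lay above 0. The 21 longer genes, of 3976 to 9306 bases, had a median of -0.29 and 3 lay above 0. Bst2, Ifitm3 and Isg15 were among the short genes that were high in library 16, and Gbp7, Parp14 and Samd9l among the long ones that were low. In controls the correlation had the opposite sign (Pearson 0.67, Spearman 0.64), and it was 0.19 and 0.23 with both agents and 0.049 and 0.052 with TMAO. The part of transcript length in the values of single genes was not tested. Within the libraries numbered 14, 40 of the 42 genes were higher with TNF-α averaged over TMAO (median log2 difference 0.33), and within those numbered 16, 32 of the 42 were (median 0.35). The same counts were not made over all genes tested. The sign differed between the numbers in Stat2, Ifih1, Eif2ak2, Adar, Ifit2, Gbp7, Cmpk2, Samd9l, Ifi35, Usp18, Trim21 and Trim25, none of which passed the test.

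**Figure D5:**
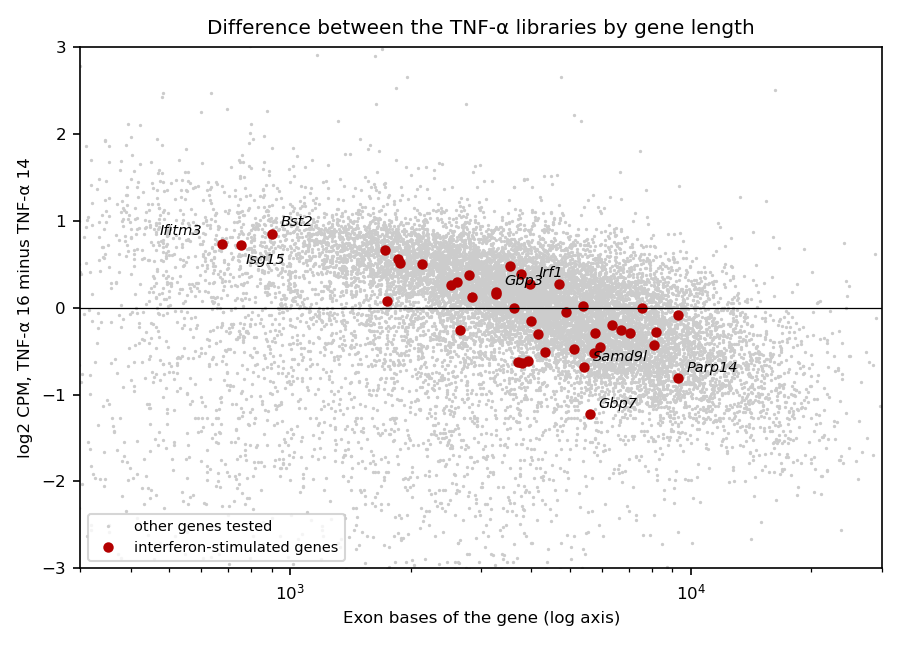
Log2 difference of TNF-α library 16 over TNF-α library 14 (vertical axis) against exon length in bases (horizontal, logarithmic axis), with the 42 genes in red over the other genes tested in grey, of which 362 fall outside the axes. Short genes such as Ifitm3, Isg15 and Bst2 lie above 0 and long genes such as Gbp7 and Parp14 below.

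The ligands of the pathway were barely detected. Of 19 interferon genes listed, 6 had 0 counts in every library (Ifna1, Ifna2, Ifna9, Ifna14, Ifna15 and Ifng), where a count of 0 allows up to 0.0984 to 0.121 CPM per library for counting error alone. The summed counts of all 19 were 10 to 18 with both agents, 24 to 33 with TNF-α, 22 to 25 with TMAO and 28 to 39 in controls. Only Ifnb1, interferon beta, passed the filter on low counts, with 0.252 and 0.284 CPM with TMAO and TNF-α, 0.496 and 0.786 with TNF-α alone, 0.420 and 0.431 with TMAO alone and 0.608 and 0.689 in control cells. Its log2 fold change with TNF-α was -0.35 (adjusted p = 0.606), at the time of collection only.

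Of the 6 receptor genes, Ifngr2 and Il10rb rose with TNF-α and Ifnlr1 fell. Ifngr2, the signalling chain of the interferon gamma receptor, had 74.2 and 76.3 CPM in cells given both agents and 83.2 and 98.3 CPM in those given TNF-α, against 39.4 and 37.7 CPM with TMAO alone and 41.7 and 44.7 CPM in control cells, a log2 fold change of 1.02 (adjusted p = 0.000532) with no overlap. Il10rb, shared by the receptors of interleukin 10 and interferon lambda, changed by 0.54 (adjusted p = 0.0317), and Ifnlr1, the specific chain for interferon lambda, by -0.74 (adjusted p = 0.0109). Of 20 signalling genes 19 were tested, 2 rose and 0 fell. Ikbke, a kinase related to Tbk1 and a known NF-κB target, had 194 and 189 CPM in cells given both agents and 198 and 162 CPM in those given TNF-α, against 67.8 and 66.5 CPM with TMAO alone and 65.7 and 67.2 CPM in control cells, a log2 fold change of 1.47 (adjusted p = 0.000172). Jak2, a kinase of the interferon gamma receptor, changed by 0.67 (adjusted p = 0.0104). Tyk2 had a log2 fold change of 0.24 (adjusted p = 0.107) and Jak1 one of 0.018 (adjusted p = 0.965). Median log2 fold changes were 0.22 for the receptors and 0.094 for the signalling genes.

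A wider list of 50 other interferon-stimulated genes, of which 42 were tested, held 14 that rose with TNF-α and 1 that fell, with a median log2 fold change of 0.30. The guanylate-binding proteins Gbp4 and Gbp8 had the largest fold changes in it. Gbp4 had 63.7 and 60.9 CPM with both agents and 57.9 and 48.6 CPM with TNF-α alone, against 13.7 to 14.3 CPM in the 4 libraries without TNF-α, a log2 fold change of 2.04 (adjusted p = 5.85e-05), and Gbp8, Gbp5, Gbp6 and Gbp9 rose by 1.88, 1.61, 1.17 and 1.08. The reads of Gbp6 are uncertain, since 29.0% of its exon bases lie in another annotated gene. The chemokines Ccl5, Cxcl11 and Cxcl10, which draw lymphocytes, rose by 1.81, 1.73 and 0.96, and Ccl5 and Cxcl10 are also known NF-κB targets. Ifi205, Slfn2, Phf11d, Ifit3b, Tor3a and Ifi44 rose by 1.16, 1.12, 0.82, 0.67, 0.57 and 0.35. Irgm1, a GTPase of cell-autonomous immunity, fell by 0.33 on the log2 scale (adjusted p = 0.0222), with 82.8 and 77.8 CPM with TMAO and TNF-α, 76.4 and 78.8 with TNF-α alone, 99.1 and 101 with TMAO alone and 96.5 and 101 in control cells. Its relatives Irgm2 and Igtp had log2 fold changes of 0.25 and 0.23 and did not pass.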

How the data were processed

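RNA-seq of Hepa1-6 cells gave 8 libraries in 4 groups of 2, and groups were taken from the titles. Raw counts per Ensembl gene, deposited by the authors, carry htseq in the table's name, and the authors' second deposited table gives TPM by symbol. Poly(A) RNA was read as paired ends, per the labels. The build was mm9, per the submitters' processing notes. The sources used here do not give the aligner, annotation, strand setting or the program behind the TPM values. Symbols and exon lengths came from GENCODE M21, an annotation of a later build (GRCm38); 53229 of the 54446 identifiers matched it with their version, so the table's annotation and the stated build do not go together, and which is right is not settled here.

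The 42 members, the gene lists and the rules were chosen with earlier results of these data known. Counts were tested with edgeR 4.0.16 (R 4.3.3) by filterByExpr, TMM scaling and the quasi-likelihood test, robust, with 4 group means, 8 contrasts and 4 residual degrees of freedom. P-values were adjusted over all 15613 genes tested by Benjamini-Hochberg, threshold 0.05. Log2 CPM used a prior count of 2. Precision is limited by 2 libraries per group, and the limit for a count of 0 was 3 counts per library. Alternatives were DESeq2 1.42.0, limma-voom and limma 3.58.1 on log2(TPM + 1) and log2(TPM + 0.1), other filters and scalings, a replicate block and leaving out libraries. Values in every library were given for each member that passed in a TNF-α or TMAO comparison. They were also given for the 2 members of each role with the smallest p. Those of Gbp7, Mx1, Isg15, Usp18 and Parp14 were chosen after their values were seen, as were the 2 values given for Bst2. Promoters came from the RefSeq table of build GRCm38.p6, matched by symbol; no other coordinates are printed.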

Additional observations from a re-analysis of the deposited data

How the results depend on the processing

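Shares in brackets are of all genes tested that passed in the same fit. Averaged over TMAO, 14 of the 42 genes passed with TNF-α (9.20%); the count was 16 with DESeq2 (8.79%), 14 with limma-voom (9.36%), 7 with limma on log2(TPM + 1) (5.56%) and 7 on log2(TPM + 0.1) (5.29%), 33 without both the TNF-α library 16 and the control library 14 (34.0%), and 7 to 31 when libraries were left out singly (3.96% to 45.6%). With TNF-α against control (5 genes, 4.05%) it was 2 and 2 on the TPM scales (1.78% and 1.42%), 0 in the 4 libraries of these groups alone (0.00672%), 26 without both of those libraries (20.1%) and 1 to 31 with single libraries left out (0.562% to 48.9%). With both agents against TMAO (7, 3.64%) it was 2 and 2 on the TPM scales (2.02% and 1.91%), 33 in their own 4 libraries (31.9%), 33 without both of those libraries (29.7%) and 0 to 26 with single ones left out (0.433% to 16.05%). With both agents against control (5, 3.49%) it was 10 with DESeq2 (5.02%), 2 and 2 on the TPM scales (1.96% and 1.80%), 22 in their own 4 libraries (15.9%), 29 without both of those libraries (22.8%) and 1 to 25 with single ones left out (0.549% to 18.4%). Both agents against TNF-α, TMAO averaged over TNF-α and the interaction called 0, and 0 to 31 (0% to 49.4%), 0 to 27 (0% to 44.8%) and 0 to 24 (0% to 35.5%) with single libraries left out; TMAO against control called 0 of the 42 genes in every alternative run. The genes that passed kept their direction under the alternatives run. In the averaged comparison Irf7, Oasl1, Oasl2, Xaf1, Parp9 and Parp12 did not pass with the replicate block. Among genes that had not passed in TNF-α against control, Gbp7, Samd9l and Trim21 passed as lower without the TNF-α library 14 (log2 fold changes -0.70, -0.25 and -0.31), where the fit to all 8 libraries had them above 0. The median log2 fold change with TNF-α (0.32) was 0.26 on log2(TPM + 1), 0.27 on log2(TPM + 0.1) and 0.31 to 0.36 with single libraries left out. Irf1, Mx2, Gbp2, Gbp3 and Uba7 passed in the averaged comparison in all 18 alternatives run on it. Leaving out a library leaves its group with 1, which is assumed to vary like the others; without a TNF-α library the widest within-group difference no longer enters the shared spread. The library numbers were not shown to pair the groups: correlations of the 16 over 14 difference between groups over all genes were -0.42 to 4.34e-05. The fit with a replicate block for the library number called 8 genes in the averaged comparison (6.48%), 2 with TNF-α against control (2.19%), 4 with both agents against TMAO (2.07%) and 3 with both against control (1.93%). All 42 genes had counts above 0 in every library, and 2 libraries per group limit the precision.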
